A study of Mus musculus with 10 samples.

Results

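The genes described here are the 39 genes of voltage-gated sodium and calcium channels in RNA sequencing libraries of mouse cortex, chosen by gene symbol alone from the 52636 genes of the deposited table. They comprise 14 sodium channel genes (10 pore-forming alpha and 4 auxiliary beta subunits) and 25 calcium channel genes (6 high-voltage and 3 low-voltage alpha1 subunits, and 4 alpha2delta, 4 beta and 8 gamma subunits). The tissue was S1BF, the barrel field of primary somatosensory cortex, which receives whisker input, taken from C57BL/6 mice on postnatal day 17. Every group carried the floxed allele of Rxra, which encodes the retinoid X receptor alpha (Rxratm1Krc/J). Loxp mice (n = 4) had no Cre named in the labels, Hetero mice (n = 2) were Nex-cre with a heterozygous conditional deletion (Rxra cKO-Het), and cKO mice (n = 4) were Nex-cre with the full conditional deletion (Rxra cKO). Nex-cre is driven from the Neurod6 locus and acts in excitatory cortical neurons, so Rxra in other cells of the tissue is not targeted. Nothing in the labels ties a library to a single animal, so the spread behind each p-value is that between libraries and may be technical.

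Voltage-gated sodium channels carry the inward current that starts and propagates the action potential, and voltage-gated calcium channels couple depolarisation to transmitter release, dendritic signalling and gene expression. A pore-forming alpha or alpha1 subunit sets the voltage range and kinetics of each channel, while the auxiliary subunits set its trafficking, gating and anchoring. The retinoid X receptor alpha is a nuclear receptor that binds DNA with partner receptors at repeats of a short hexamer, AGGTCA.

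Total counts per library were 19332990 to 26086337. Enough counts for a test were found for 36 of 39 channel genes, among 18455 genes tested. Rxra itself was at 21.6 to 31.8 CPM (counts divided by TMM-adjusted library totals) in Loxp, 23.2 and 26.4 CPM in Hetero and 29.0 to 32.4 CPM in cKO, so whole-gene counts did not show the deletion. The cortical excitatory marker Slc17a7, the vesicular glutamate transporter, was at 2125 to 2612 CPM in all 10 libraries. Markers of striatal projection neurons were also present in every library, with a summed level of 124 to 794 CPM over 6 genes. The choroid plexus list (6 genes) summed to 731 CPM in Hetero 2 and 2.95 to 22.5 CPM in the other libraries. The libraries Loxp 2 and cKO 2 stood apart in several lists.

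The promoters of 3 members are shown because the deleted receptor acts at this hexamer, 2 of them holding it and the third belonging to the member with the widest spread between libraries. Each runs from 250 bases before to 50 bases after a RefSeq transcript start on build GRCm38.p6, written 5′ to 3′ on the strand of the gene, with AGGTCA in capitals. Scn1a lies on the minus strand at chr2:66440788-66441087, the downstream start of Scn8a on the plus strand at chr15:100936021-100936320, and Scn4b on the plus strand at chr9:45138374-45138673.
Scn1a: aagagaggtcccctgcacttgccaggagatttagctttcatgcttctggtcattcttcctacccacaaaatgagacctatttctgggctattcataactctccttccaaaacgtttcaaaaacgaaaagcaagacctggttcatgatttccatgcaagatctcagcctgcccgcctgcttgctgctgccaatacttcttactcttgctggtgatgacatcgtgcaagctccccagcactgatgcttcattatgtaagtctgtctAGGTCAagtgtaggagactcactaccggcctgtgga
Scn8a: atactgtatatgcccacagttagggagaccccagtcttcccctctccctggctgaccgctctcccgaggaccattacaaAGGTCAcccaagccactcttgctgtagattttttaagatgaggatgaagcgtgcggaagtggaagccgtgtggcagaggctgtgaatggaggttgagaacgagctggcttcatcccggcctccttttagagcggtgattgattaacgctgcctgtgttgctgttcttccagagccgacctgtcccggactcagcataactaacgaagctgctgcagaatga
Scn4b: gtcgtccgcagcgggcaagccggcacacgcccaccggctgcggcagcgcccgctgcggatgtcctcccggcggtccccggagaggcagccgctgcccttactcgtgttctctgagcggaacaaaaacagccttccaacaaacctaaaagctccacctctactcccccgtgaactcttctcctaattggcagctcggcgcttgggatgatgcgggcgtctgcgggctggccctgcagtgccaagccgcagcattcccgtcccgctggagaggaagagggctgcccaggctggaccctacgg
With the start base counted as 1, the hexamer began at base 15 in Scn1a and 171 bases before the start in Scn8a. Of 39 members, 29 matched the RefSeq table, with 40 promoters in all. AGGTCA on either strand lay in 4 of these 40 promoters, those of Scn1a, Scn8a, Cacna1f and Cacng8, against 5340 of 32851 promoters (16.3%) in the whole table. No channel promoter held a direct repeat of AGGTCA with 1, 2, 4 or 5 bases between the copies. A match of letters is a description of the window and not a bound site.

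Among sodium channel alpha subunits, the 3 adult brain genes led at levels per gene length. Mean FPKM (fragments scaled by gene length and library depth, over the 10 libraries) was 23.96 for Scn8a, the channel of nodes of Ranvier and the distal axon initial segment, 22.65 for Scn2a, found along unmyelinated axons and the proximal initial segment, and 16.06 for Scn1a, the main sodium channel of fast-spiking interneurons. Scn3a, which is most abundant before birth, came next at 3.56 FPKM. The ranges of Scn8a, Scn2a and Scn1a overlapped over libraries, and Scn8a exceeded Scn2a in 7 of 10, whereas Scn1a was above Scn3a in every library. Other alpha subunits were far lower in FPKM: Scn9a at 0.343, Scn7a at 0.240, Scn10a at 0.0558, Scn11a at 0.0281 and Scn4a at 0.00776. Of these, Scn9a, Scn10a and Scn11a serve peripheral sensory neurons and Scn4a skeletal muscle, and Scn7a encodes a sodium-sensing relative. Scn4a had 0 to 4 counts per library and Scn11a 1 to 9, and neither was tested. Scn4a had 0 counts in 4 libraries, which allows up to 0.146 CPM at their depth (3 counts, counting error only).

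The sodium channel beta subunits flank the pore as single-pass adhesion-like proteins. Of those reported here, Scn2b was at 51.6 FPKM, Scn4b at 19.47 and Scn3b at 14.29. Scn4b and Scn3b overlapped, Scn4b being the higher in 7 of 10 libraries. Scn4b supplies the blocking peptide of resurgent current and is best known from striatum and cerebellum, and Scn3b is most abundant around birth.

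Cacna1a, the P/Q-type channel of presynaptic terminals, was the leading alpha1 subunit at 39.05 FPKM. Within the high-voltage group it was followed by Cacna1b (N-type, also presynaptic) at 20.39 and Cacna1e (R-type) at 11.18, in the same order in each of the 10 libraries. The L-type genes Cacna1d and Cacna1c, which couple calcium entry to transcription, were at 5.31 and 5.09 FPKM with overlapping ranges, and the retinal gene Cacna1f was at 0.129. In the low-voltage (T-type) group, which supports burst firing, Cacna1i at 23.64 FPKM and Cacna1g at 21.07 overlapped, and Cacna1h was lower at 7.41.

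Of the alpha2delta subunits, which carry alpha1 to the membrane, Cacna2d1 was at 19.43 FPKM, Cacna2d3 at 14.32, Cacna2d2 at 8.30 and Cacna2d4 at 0.327. The intracellular beta subunits were ordered Cacnb3 (103.4 FPKM), Cacnb1 (42.67), Cacnb4 (26.31) and Cacnb2 (2.33) with no overlap between neighbours. Cacnb3's share of the beta subunit FPKM was 59.1% as deposited and 53.0% when counts were divided by exon lengths of GENCODE M21, since the FPKM of this gene imply a shorter length. Gamma subunits were led by Cacng7 (91.97 FPKM), then Cacng3 (58.14), Cacng8 (37.44), Cacng2 (23.14) and Cacng4 (15.26), all of which assist AMPA-type glutamate receptors. Cacng5, another of these, was at 2.33 FPKM, Cacng6 at 0.544 and Cacng1, the skeletal muscle subunit, at 0.102 with 0 to 5 counts per library and no test. Among neighbours in this order only Cacng2 and Cacng4 overlapped, Cacng2 being the higher in 9 of 10 libraries.

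**Figure D1:**
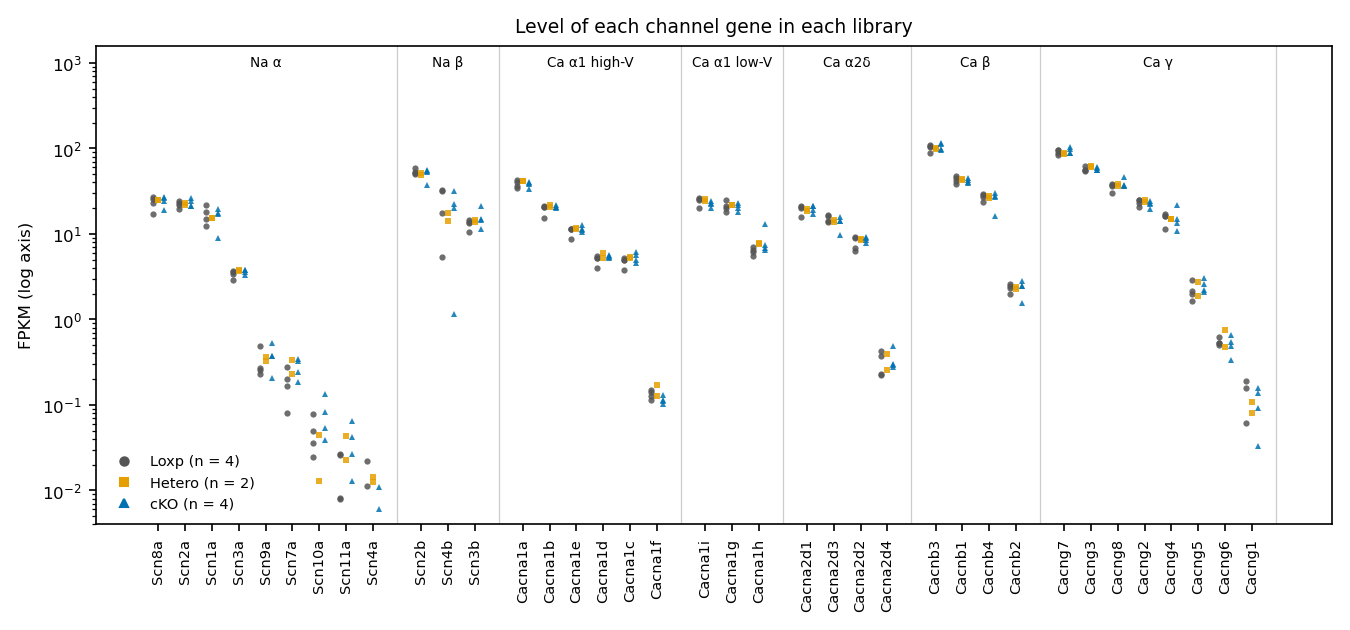
Deposited FPKM (log axis) of 37 channel genes in each library, with Loxp as circles, Hetero as squares and cKO as triangles, ordered by mean level within each role; values at 0 (Scn4a in 4 libraries, Cacng1 in 1) are not drawn. The cKO and Loxp points overlap for every gene, and Scn4b spans the widest range of the genes above 1 FPKM on average, from 1.15 to 32.8.

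The first comparison, cKO against Loxp, sets the full conditional deletion with Nex-cre against floxed mice with no Cre named in the labels. The deletion and Nex-cre with its Neurod6 locus cannot be told apart here. Mean Neurod6 was 54.8 CPM in Loxp, 34.18 CPM in Hetero and 29.46 CPM in cKO. Loxp 4, at 34.89 CPM, lay within the cKO range of 22.89 to 38.08 CPM. The other Loxp libraries were at 55.73 to 66.7 CPM. No channel gene passed an edgeR adjusted p of 0.05, where 0.0% of all genes tested did. With the other tools, DESeq2 called 2 genes and limma-voom 0, none of them a channel gene. At an unadjusted p under 0.05, 1 of 36 channel genes passed, Cacna1h, against a background of 2.53% (466 of 18455 genes). No channel gene had libraries of cKO entirely above or below those of Loxp, where 1.54% of all genes did. Fitted values were higher in cKO for 22 genes and lower for 14, with a median log2 fold change of 0.049 (0.000328 over all genes tested). That median was 0.0087 without Loxp 1 and 0.021 without cKO 1. For 26 of 36 channel genes the 95% interval of the fold change lay within 1.5-fold either way, as it did for 11957 of 18455 genes tested. For 10 channel genes it did not, among them Cacna1h, Scn4b and low genes such as Cacna1f, Cacng6, Scn10a and Scn7a.

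**Figure D2:**
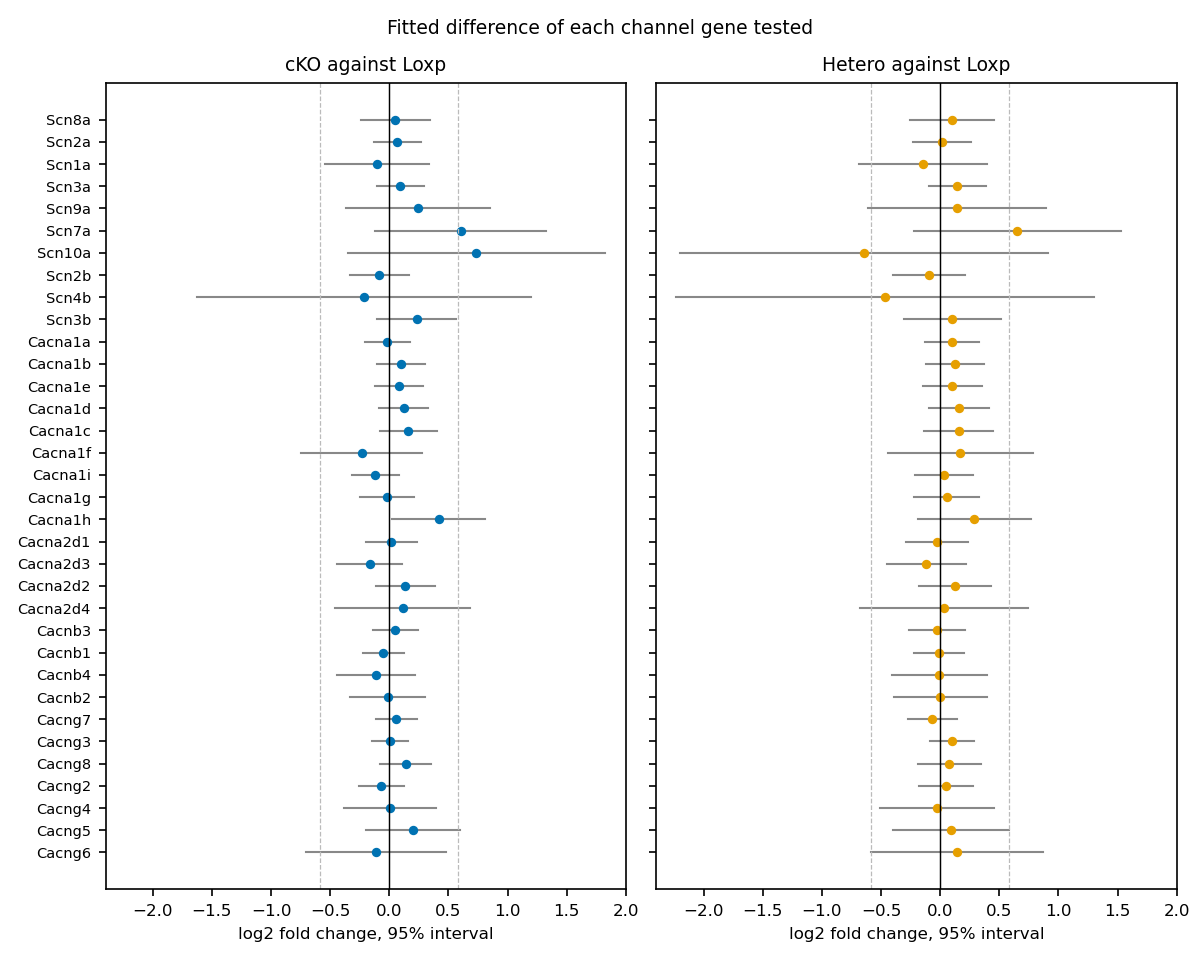
Fitted log2 fold change (points) and 95% interval (lines) from edgeR for 34 of the 36 channel genes tested, for cKO against Loxp and Hetero against Loxp, which share the Loxp libraries; dashed lines mark a 1.5-fold difference. All intervals but that of Cacna1h in cKO span 0, and the widest are those of Scn4b and Scn10a.

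The leading sodium alpha genes did not separate cKO from Loxp. Scn8a was at 274, 366, 429 and 408 CPM in Loxp, 396 and 397 CPM in Hetero, and 416, 304, 427 and 384 CPM in cKO. Its lowest libraries were Loxp 1 and cKO 2, the groups overlapped, and the log2 fold change of 0.05 (SE 0.135) was −0.069 without Loxp 1. Scn2a was at 249.8, 299, 314 and 275 CPM in Loxp, 281 and 292 CPM in Hetero, and 334, 274, 312 and 271 CPM in cKO. Its highest value was in cKO 1 and its lowest in Loxp 1, with a log2 fold change of 0.07 (SE 0.0931), or 0.010 without Loxp 1 and 0.0077 without cKO 1. Scn1a, at 139.9, 170.1, 205 and 240.3 CPM in Loxp, 169.9 and 172 CPM in Hetero, and 195, 101, 190.1 and 217 CPM in cKO, was lowest in cKO 2 and highest in Loxp 4. Its log2 fold change of −0.10 (SE 0.204) changed sign without cKO 2 (0.091) and without Loxp 4 (0.041).

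Scn10a and Scn7a, both low alpha subunits, had the largest fitted values. Scn10a was at 0.626, 0.287, 0.197 and 0.399 CPM in Loxp, 0.102 and 0.36 CPM in Hetero, and 0.67, 0.432, 0.311 and 1.09 CPM in cKO. Scn10a passed the low-count filter through cKO libraries and Loxp 1, which favours a high fitted value in cKO. cKO 4 was the highest library, the groups overlapped, and the log2 fold change was 0.73 (edgeR SE 0.504, adjusted p = 1), or 0.34 without cKO 4. Scn7a was at 2.07, 1.24, 0.59 and 1.48 CPM in Loxp, 2.503 and 1.71 CPM in Hetero, and 2.404, 2.55, 1.79 and 1.38 CPM in cKO. Loxp 3 was its lowest library, and 2 of the 4 cKO libraries lay above all Loxp libraries. The log2 fold change of Scn7a was 0.60 (edgeR SE 0.336, adjusted p = 1), and 0.35 without Loxp 3.

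Among the sodium beta subunits, Scn2b was at 246, 233, 279.6 and 243 CPM in Loxp, 231 and 239 CPM in Hetero, and 248, 176, 264 and 257 CPM in cKO. Only cKO 2 lay below 200 CPM, and the log2 fold change of −0.08 (SE 0.115) was 0.036 without that library. Scn3b was at 74.1, 80.8, 77.0 and 58.0 CPM in Loxp, 75.5 and 79.9 CPM in Hetero, and 79.3, 116, 82.3 and 62.6 CPM in cKO. Its highest library was cKO 2, and the log2 fold change of 0.23 (edgeR SE 0.156, adjusted p = 1) was 0.049 without that library and 0.14 without Loxp 4.

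Cacna1h, the T-type gene with the smallest p, was at 68.6, 54.2, 60.3 and 63.9 CPM in Loxp, 76.6 and 74.4 CPM in Hetero, and 73.5, 127, 63.0 and 66.4 CPM in cKO. Its cKO mean of 82.6 ± 30.2 CPM (SD, n = 4) against 61.8 ± 6.06 in Loxp (SD, n = 4) rested on cKO 2, as 2 of the other 3 cKO libraries lay within the Loxp range. The log2 fold change was 0.42 (edgeR SE 0.182, adjusted p = 1). Without cKO 2 it was 0.13 (SE 0.0902), and without both Loxp 2 and cKO 2 it was 0.08 (SE 0.0827), in each case no longer at an unadjusted p under 0.05. The unadjusted p also exceeded 0.05 without Loxp 2, Loxp 3 or Loxp 4, each left out alone, and with limma-voom. With the replicate number as a block in edgeR it stayed under 0.05, but not with that block and only the Loxp and cKO libraries. Cacna1g, at 183, 256, 217 and 202 CPM in Loxp, 223 and 223 CPM in Hetero, and 207, 234, 222 and 184 CPM in cKO, was highest in Loxp 2 and overlapped between groups. Cacna1i was at 199.5, 254, 261 and 249.6 CPM in Loxp, 253 and 241 CPM in Hetero, and 228, 201, 239 and 219.8 CPM in cKO. Loxp 1 and cKO 2 were its lowest libraries, and the log2 fold change of −0.12 (SE 0.0929) was −0.20 without the first and −0.071 without the second.

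Of the high-voltage alpha1 genes, Cacna1a was at 401, 414, 472 and 491 CPM in Loxp, 472 and 480.1 CPM in Hetero, and 458, 389, 444 and 466 CPM in cKO. Its range was narrow and shared by Loxp and cKO, and its log2 fold change of −0.017 (SE 0.0878) changed sign without Loxp 3, Loxp 4 or cKO 2 (0.012 to 0.041). Cacna1b was at 156, 207, 208 and 209 CPM in Loxp, 209 and 216 CPM in Hetero, and 209, 217, 207 and 201 CPM in cKO. Loxp 1 alone lay below 200 CPM, and the log2 fold change of 0.10 (SE 0.0932) was 0.0055 without it. Cacna1c was at 81.4, 112, 106 and 106 CPM in Loxp, 115 and 111 CPM in Hetero, and 119.9, 131, 105 and 97.5 CPM in cKO. cKO 2 was highest and Loxp 1 lowest, with overlap and a log2 fold change of 0.16 (edgeR SE 0.112, adjusted p = 1), which was 0.086 without cKO 2 and 0.068 without Loxp 1. Cacna1e, Cacna1d and Cacna1f had log2 fold changes of 0.08, 0.12 and −0.23, and of −0.00067, 0.027 and −0.205 without Loxp 1.

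The auxiliary calcium channel genes had small fitted differences. Cacna2d1 was at 198, 267, 252 and 254 CPM in Loxp, 234 and 242 CPM in Hetero, and 263, 217, 263 and 239 CPM in cKO. Cacna2d3 was at 141, 122, 149 and 122 CPM in Loxp, 120.0 and 126 CPM in Hetero, and 139.5, 85.9, 126 and 125 CPM in cKO. The lowest libraries were Loxp 1 for Cacna2d1 and cKO 2 for Cacna2d3, and both genes overlapped between groups. Cacnb3 was at 328, 282, 335 and 341 CPM in Loxp, 309 and 322 CPM in Hetero, and 300.1, 366, 311 and 353 CPM in cKO, and Cacnb1 was at 203, 178, 218 and 191 CPM in Loxp, 194 and 198 CPM in Hetero, and 194, 183, 207 and 179 CPM in cKO. cKO 2 was the highest library for Cacnb3, Loxp 3 for Cacnb1, and neither gene separated the groups. Cacng7 was at 217, 206, 239 and 235 CPM in Loxp, 211 and 218 CPM in Hetero, and 218, 244, 219.5 and 253 CPM in cKO. Cacng3, at 157, 152, 173 and 157 CPM in Loxp, 173 and 169 CPM in Hetero, and 155, 156, 169 and 163 CPM in cKO, had the smallest spread within groups of any channel gene tested (SD 0.0667 log2). Fitted log2 fold changes were −0.17 to 0.14 for the 4 alpha2delta genes, −0.11 to 0.05 for the 4 beta genes and −0.11 to 0.20 for the 7 gamma genes tested. The ends of these ranges moved with single libraries. Without cKO 2, Cacna2d3 went from −0.17 to −0.035, Cacnb4 from −0.11 to 0.056 and Cacng5 from 0.20 to 0.087. Cacna2d2 went from 0.14 to 0.043 without Loxp 1, Cacnb3 from 0.05 to −0.0096 without Loxp 2, and Cacng6 from −0.11 to 0.040 without cKO 4.

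The second comparison, Hetero against Loxp, has only 2 Hetero libraries and uses the same Loxp libraries as the first. Here too, the heterozygous deletion and Nex-cre cannot be told apart. No channel gene passed an edgeR adjusted p of 0.05 (background 0.0%), and 0 passed an unadjusted p of 0.05, against 2.54% of all genes. Without Loxp 2 and cKO 2, an unadjusted p under 0.05 was reached by 3 channel genes, Cacna1h and Scn4b among them, of 881 genes of 18330 tested. DESeq2 called 17 genes and limma-voom 0, no channel gene among them. Libraries did not overlap for 2 of 36 channel genes, Cacna1b and Cacna1h, both higher in Hetero, where 11.4% of all genes did not overlap. The values of Cacna1h were 74.4 and 76.6 CPM in Hetero against at most 68.6 in Loxp, with a log2 fold change of 0.29 (edgeR SE 0.221, adjusted p = 1). Fitted values were higher for 24 channel genes and lower for 12, with a median of 0.068 (−0.00679 over all genes), which was 0.025 without Loxp 1.

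Scn7a had the smallest p, with a log2 fold change of 0.65 (edgeR SE 0.406, adjusted p = 1) and Hetero libraries within 1.71 to 2.50 CPM. It was 0.36 without Hetero 1 and 0.40 without Loxp 3. Cacna1d was at 50.8, 66.9, 67.3 and 69.7 CPM in Loxp, 75.5 and 66.8 CPM in Hetero, and 72.1, 69.7, 68.0 and 67.2 CPM in cKO. Loxp 1 was lowest and Hetero 1 highest, with Hetero 2 inside the Loxp range and a log2 fold change of 0.16 (SE 0.119), which was 0.066 without Loxp 1 and 0.070 without Hetero 1. Scn3a was at 36.0, 47.0, 44.8 and 42.5 CPM in Loxp, 47.5 and 46.7 CPM in Hetero, and 47.5, 48.1, 45.0 and 41.1 CPM in cKO. Hetero 2 lay within the Loxp range, and the log2 fold change of 0.15 (SE 0.111) was 0.073 without Loxp 1. All 9 calcium alpha1 genes had a fitted value above 0 in Hetero, from 0.034 for Cacna1i to 0.29 for Cacna1h, none past the threshold, where 48.2% of all genes tested were above 0. Loxp 1 was the lowest of the 10 libraries for 6 of the 9, and without it Cacna1g (−0.011) and Cacna1i (−0.047) were below 0.

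The third comparison, cKO against Hetero, has Nex-cre in both groups and asks whether the full deletion differed from the heterozygous one. No channel gene passed an adjusted edgeR p of 0.05 (background 0.0%) and 0 passed an unadjusted p of 0.05, where 1.74% of all genes did. Without Loxp 2 and cKO 2, 1 did, Scn4b, among 666 genes. DESeq2 called 3 genes and limma-voom 0, again with no channel gene. Cacna1a, Cacna1i and Cacng3 were lower in every cKO library than in both Hetero libraries, 3 of 36 against 9.43% of all genes. Scn10a, at 2 and 8 counts in Hetero against 8 to 26 in cKO, had a log2 fold change of 1.38 (edgeR SE 0.694, adjusted p = 1), and Cacna1f had −0.41 (SE 0.286). These were 0.79 for Scn10a without Hetero 1 and −0.18 for Cacna1f without Hetero 2. Scn10a passed the low-count filter through cKO libraries and Loxp 1, with neither Hetero library at that level. That filter favours a high fitted value in cKO. Cacna1f was at 1.3, 1.39, 1.06 and 1.16 CPM in Loxp, 1.18 and 1.57 CPM in Hetero, and 1.18, 1.04, 0.934 and 1.003 CPM in cKO. Its Hetero 2 value was the highest of all and Hetero 1 fell between the cKO values. Cacna1i and Cacng7 had log2 fold changes of −0.15 (SE 0.113) and 0.12 (SE 0.0981), the latter 0.080 without cKO 4. Over the 36 genes, 19 were higher and 17 lower in cKO, with a median of 0.0060 (0.00782 over all genes).

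Genes whose products bind or modify these channels were counted in the same fits. The alpha1 gene Cacna1s, which the choice by symbol leaves out of the members, was counted among the calcium channel partners. Of 17 sodium channel partners, 14 had a fitted value above 0 and 3 below in cKO against Loxp (median 0.038), and of 16 calcium channel partners 7 were above and 9 below (median −0.016). Over all genes tested, 50.1% were above 0. The sodium channel partners summed to 4231 CPM in Loxp 1 and to 4804 to 5163 CPM in the other libraries. The part of Loxp 1 in these signs was not tested. No partner gene passed the adjusted threshold in any comparison. Rangrf, which promotes trafficking of sodium channels, had 5 to 13 counts per Loxp library, 1 in each Hetero library and 2 to 6 per cKO library. Rangrf passed the low-count filter through Loxp libraries alone and was named for its small p. Both choices favour a low ratio to Loxp, so the intervals given next only describe these counts. Of 20 alternative settings for cKO against Loxp, 12 kept Rangrf in the fit. Its ratio of counts scaled by depth was 0.117 for Hetero over Loxp (exact 95% interval 0.0137 to 0.454, counting error only) and 0.446 for cKO over Loxp (0.24 to 0.802), with edgeR adjusted p = 1 in both fits. Fgf11, an intracellular modulator of sodium channels, and Unc79, of the sodium leak channel complex, had log2 fold changes of 0.17 and 0.11 in cKO against Loxp, which fell to 0.032 without cKO 2 and to 0.050 without Loxp 1. Gem, a small GTPase that inhibits calcium channels, had −0.30 there (−0.20 without Loxp 3 and −0.46 without Loxp 4) and −0.72 in Hetero against Loxp (edgeR SE 0.3, adjusted p = 1). Another such GTPase, Rem1, had −1.14 (SE 0.592) and Cacna1s, the skeletal muscle alpha1 gene, 0.90 (SE 0.541) in Hetero against Loxp. Rem1 had −0.67 without Loxp 1, and Cacna1s 0.56 with the replicate number as a block. In cKO against Hetero, Rangrf had 1.83 (SE 0.914), Rem1 0.86, Gem 0.42 and Rims2, a presynaptic scaffold gene, 0.18. Gem had 0.21 without Hetero 1 and Rims2 0.096 without cKO 4.

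The widest differences among libraries lay within the groups. Scn4b was at 158, 27.1, 165 and 88.3 CPM in Loxp, 87.5 and 71.5 CPM in Hetero, and 160.0, 5.79, 112 and 100.2 CPM in cKO. Loxp 2 and cKO 2 were the lowest libraries of their groups, and the highest value was 28.6 times the lowest. Its SD within groups was 1.65 on the log2 scale, rank 25 of 18455 genes and rank 4 of the 6225 genes with a mean log2 CPM over 5. Without Loxp 2 and cKO 2 the SD was 0.4. The median SD was 0.192 over the 36 channel genes and 0.204 over all genes tested. With a mean log2 CPM over 5 it was 0.157 over 27 channel genes and 0.126 over the 6225 genes. The log2 fold change of Scn4b in cKO against Loxp was −0.21 (edgeR SE 0.654, adjusted p = 1), and it changed sign to 0.18 without cKO 2, to 0.014 without Loxp 1 and to 0.05 without Loxp 3.

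Scn4b moved with the striatal marker list (Drd1, Drd2, Adora2a, Rgs9, Ppp1r1b and Penk), whose sum was 794, 147, 618 and 397 CPM in Loxp, 433 and 330.3 CPM in Hetero, and 702, 124, 443 and 474 CPM in cKO. All 6 genes of the list were detected, and Drd2, a defining gene, was at 1.67 CPM in Loxp 2, 1.77 in cKO 2 and 7.18 to 23.1 elsewhere. Over 10 libraries, log2 Scn4b and the log2 sum had Pearson r = 0.941 (permutation p = 5e-05, adjusted over 13 marker lists 0.00065) and Spearman rho = 0.927 (permutation p = 0.00035, adjusted 0.00455), two-sided with 100000 permutations. Scn4b was singled out after its values were seen, and the lists were chosen with earlier results of these data known. The permutation p takes no account of that choice and only describes these libraries. Ppp1r1b was the largest part of the sum, at 524.1 CPM in Loxp 1 and 83.48 CPM in cKO 2. Without Loxp 2 and cKO 2, the 2 libraries farthest from the median, r was 0.947. An adjusted permutation p of Pearson's r under 0.05 was also found for the interneuron, oligodendrocyte precursor, endothelial and astrocyte lists. Without Loxp 2 and cKO 2, r went from 0.876 to 0.384 for interneurons, from −0.943 to −0.22 for the precursors and from −0.885 to −0.379 for endothelium, so these relations rested on those libraries. The astrocyte list changed sign, from −0.876 to 0.902, and so did microglia, from −0.768 to 0.65. Mural markers had a Spearman rho of −0.806 (permutation p = 0.00702, adjusted 0.0456), and their r of −0.724 was −0.641 without Loxp 2 and cKO 2. The part of these cell types in the Scn4b values was not tested. In tissue of mixed cells, fewer cells of a type and less RNA per cell cannot be told apart.

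**Figure D3:**
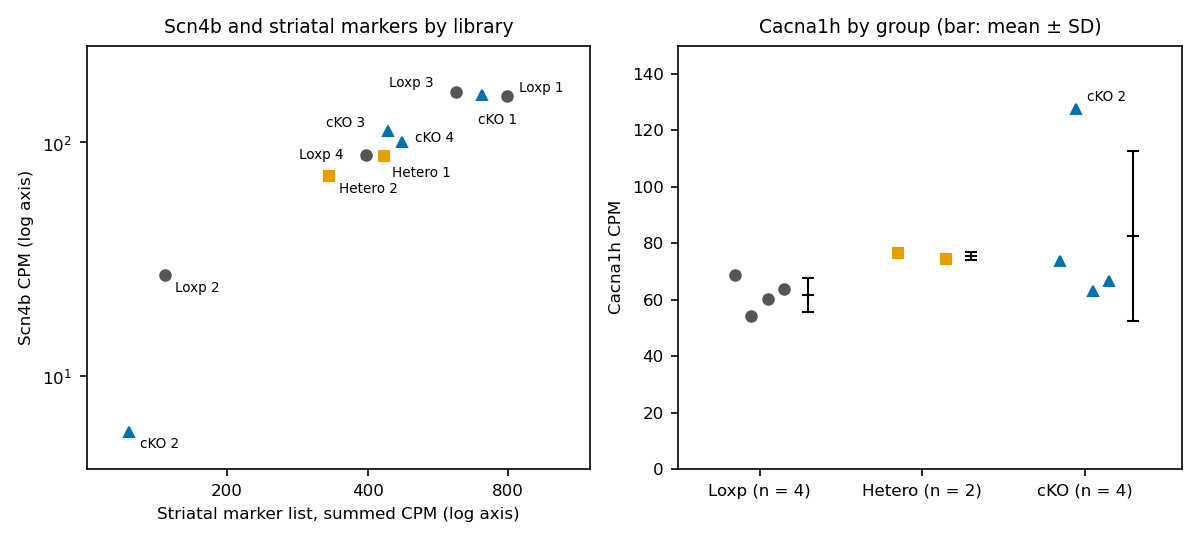
Left, Scn4b CPM against the summed CPM of 6 striatal markers in each library (both log axes), with group symbols; right, Cacna1h CPM by library with the group mean ± SD. Scn4b rises with the striatal sum from cKO 2 (5.79 CPM) to Loxp 3 (165 CPM), and the cKO 2 value of Cacna1h (127 CPM) stands above all others.

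The library cKO 2 was the highest or lowest of the 10 for 21 of 36 channel genes (58.3%), against 39.1% of all genes tested. It was highest for 11 genes, among them Cacna1b, Cacna1c, Cacna1h, Cacnb3, Cacng4, Cacng8, Scn3a and Scn3b, and lowest for 10, among them Cacna1a, Cacna2d3, Cacnb2, Cacnb4, Cacng2, Scn1a, Scn2b and Scn4b. The FPKM ratio of Scn1a to Scn3a was 2.34 there and 4.0 to 6.32 in the other 9 libraries. The ratio of the mature to the early gene was thus lowest in that library. In the same library the 6 interneuron markers summed to 649 CPM (664 to 990 elsewhere). Among them Pvalb, the calcium-binding protein of fast-spiking interneurons, was at 18.1 CPM (45.9 to 94.6 elsewhere). Gad1 and Gad2 were also lowest in cKO 2, whereas Slc32a1, Sst and Vip lay within the range of the other libraries. The 3 oligodendrocyte precursor markers summed to 424 CPM in cKO 2 (209 to 320 elsewhere), and the 5 oligodendrocyte markers to 5512 CPM (5996 to 9973 elsewhere). Their part in the channel values was not tested.

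Loxp 1 was the lowest library for 11 of 36 channel genes and the highest for none. It was lowest for 30.6% of them against 15.2% of all genes tested, and highest for 0.0% against 16.4%. Of the 11 genes, 9 encode pore-forming subunits, as do 17 of the 36 tested. The 9 were Cacna1b, Cacna1c, Cacna1d, Cacna1e, Cacna1g, Cacna1i, Scn2a, Scn3a and Scn8a, with Cacna2d1 and Cacna2d2 beside them. The transcripts of such genes are long, and in Loxp 1 the 20 channel genes with over 8000 exonic bases deviated from their mean over libraries by a median of −0.23 on the log2 scale, 15 of them below it. All 2657 genes of that length with a mean log2 CPM over 0 deviated by −0.13 and 4641 such genes under 3000 bases by 0.14 in Loxp 1, where in the other libraries long genes lay between −0.038 and 0.052. The 5 channel genes under 3000 bases deviated by a median of −0.046 in Loxp 1, 3 of them below their mean over libraries. The part of gene length in the channel values of Loxp 1 was not tested.

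**Figure D4:**
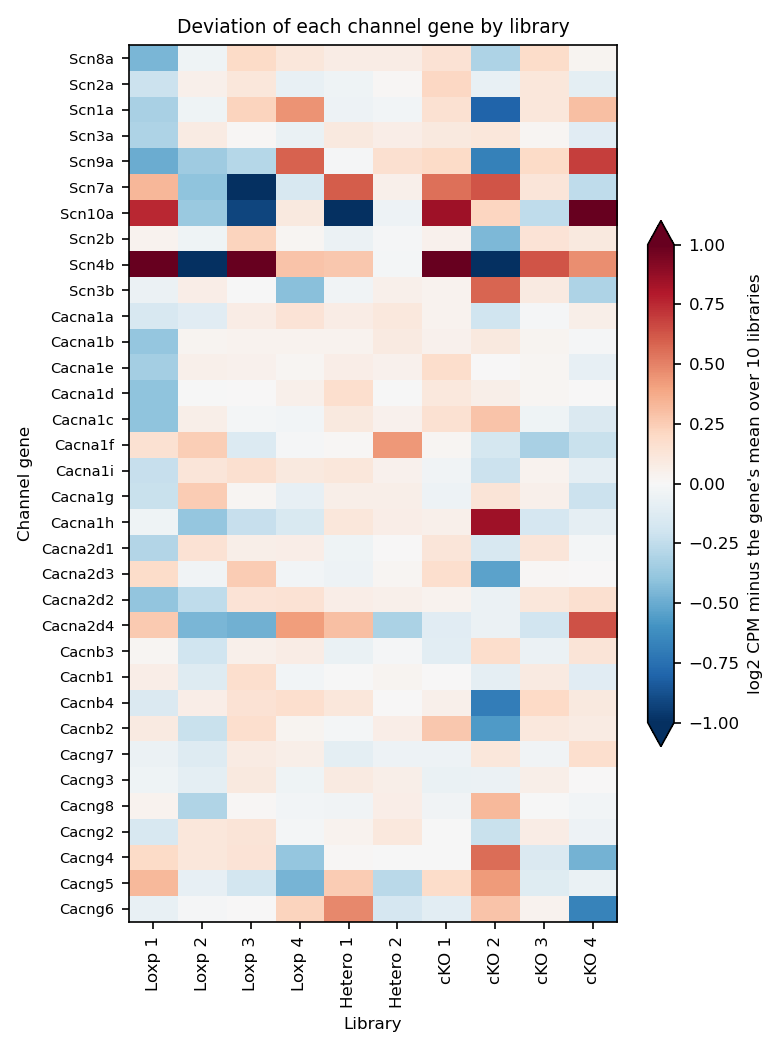
Heat map of log2 CPM minus each gene's mean over the 10 libraries for 34 of the 36 channel genes tested (colour scale from −1 to 1, with values beyond it at the end colours), libraries in columns by group and genes in rows by role. The strongest columns are cKO 2 and Loxp 1, and the Scn4b row is lowest in Loxp 2 and cKO 2.

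On chromosome 2, which carries Rxra, lay 8 members, of which Cacna1b was nearest at 2.91 Mb (GRCm38, 24603887 to 24763152) and the sodium channel genes Scn1a, Scn2a, Scn3a, Scn7a and Scn9a formed a cluster 37.7 to 38.9 Mb away. Exons of Cacnb4 overlapped those of A430018G15Rik on the opposite strand over 16.0% of their length, and 9 other members overlapped another gene by under 6%. Whether counting used strand is not given in the sources used here, so reads of such pairs cannot be told apart.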

How the data were processed

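Per the labels, tissue was frozen, RNA was extracted with Trizol and libraries were made with the NEBNext Ultra RNA kit. The authors deposited read counts per gene, for which the submitters' processing notes name featureCounts 1.5.0-p3 and the build mm10, and FPKM per gene and library in the same deposited table. The sources used here do not give the aligner, annotation or strand setting, and the authors' test columns were not used.

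Counts were fitted with edgeR 4.0.16 in R 4.3.3 (TMM, filterByExpr, glmQLFit and glmQLFTest) over all 10 libraries with a mean per group, and p-values were Benjamini-Hochberg adjusted over 18455 genes. Log2 CPM used a prior count of 2. Intervals are 95%. DESeq2 1.42.0, limma-voom (limma 3.58.1), other scalings and filters, the replicate block and each library left out were alternatives. FPKM served only to compare levels between genes. Exon lengths and coordinates came from GENCODE M21.

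Members and gene lists were chosen with earlier results of these data known. In all, 2 members and 1 marker gene are not reported here; counts over all 39 or 36 channel genes include the members, and the sum of striatal markers leaves the marker out. Every other member is named with its level; values per library are given for the 2 highest reported genes of each role, for the reported genes with the smallest p (up to 6 in cKO against Loxp, 4 in each other comparison) and for genes singled out after their values were seen (Scn4b, Scn1a). Of partner genes, the 4 with the smallest p per comparison are named. Depth was 19332990 to 26086337 counts per library.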

Additional observations from a re-analysis of the deposited data

Results flagged for a closer look

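In groups of 4 libraries, the highest or lowest library stood apart from the other 3 by more than 0.829 of the group's range (Dixon's 95% value) for 8 of the 72 gene and group pairs tested. Chance gives about 1 in 20 for independent normal values, but these pairs share libraries and are not independent. The share of all genes flagged by this rule was not computed, so no excess in channel genes can be read from the 8. Of the 8, 3 were low values of pore-forming calcium channel genes in Loxp 1: Cacna1b at 155.8 CPM (206.9 to 208.7 in the other Loxp libraries), Cacna1d at 50.81 CPM (66.93 to 69.67) and Cacna1e at 223.0 CPM (284.9 to 291.1). In cKO 2, Cacna1h was at 127.4 CPM (62.96 to 73.54 in the other cKO libraries) and Cacng8 at 110.3 CPM (85.83 to 87.45). Loxp 4 was low for Cacng4 at 41.12 CPM (58.41 to 61.4) and high for Scn9a at 6.341 CPM (2.986 to 3.46). In cKO 4, Cacna2d4 was at 4.682 CPM (2.648 to 2.893). By this measure on CPM, Scn4b did not stand apart in cKO 2 (5.787 CPM, a gap of 0.613 of the range), but on the log2 scale the gap was 0.859 of the range.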

How the results depend on the processing

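No channel gene passed an adjusted p of 0.05 in any comparison under any alternative run, and the smallest adjusted p of a channel gene was 0.169 (edgeR with no low-count filter, cKO against Loxp). Counts over all genes, 0 in each comparison with edgeR, rose with no low-count filter to 32 for cKO against Loxp, 68 for Hetero against Loxp and 39 for cKO against Hetero, and with DESeq2 to 2, 17 and 3. With the replicate block they were 1, 1 and 0, and 1 with only the Loxp and cKO libraries and the block, a setting added after seeing the data. Leaving out 1 library gave 0 to 1 in cKO against Loxp (1 without cKO 2), 0 to 15 in Hetero against Loxp and 0 to 14 in cKO against Hetero (15 and 14 without Hetero 1, where the lone Hetero library is assumed to vary like the other groups). The log2 fold change of Scn4b in cKO against Loxp ran from −0.59 to 0.18 over libraries left out, and was reversed without Loxp 1 (0.014), Loxp 3 (0.05) and cKO 2 (0.18). It was −0.64 with limma-voom, −0.38 with the replicate block and −0.52 with the block and only Loxp and cKO. The block also moved Scn7a to 0.37 and Cacna1h to 0.12 in Hetero against Loxp, and Cacng7 to 0.073 and Rims2 to 0.040 in cKO against Hetero. Over all 36 channel genes, checked after seeing the data, leaving out 1 library changed the sign of up to 8 in cKO against Loxp (8 without cKO 2), up to 7 in Hetero against Loxp and up to 11 in cKO against Hetero (11 without cKO 2). Correlations of same-numbered Loxp and cKO libraries were 0.0918, 0.268, 0.109 and 0.447 over 15221 genes, and each library correlated best with its own number. This is a hint of pairing from the data and not the design, and the main fits did not use it. In edgeR with the replicate block, Cacna1h, Scn3b and Scn7a had an unadjusted p under 0.05 in cKO against Loxp, among 645 of 18455 genes. With the block and only Loxp and cKO, Scn3b alone of the channel genes did, among 575 of 17398 genes. Shares of calcium beta subunits by GENCODE exon length, also added later, were 53.0% for Cacnb3, 28.1% for Cacnb1 and 1.53% for Cacnb2. The planned use of the table's own gene lengths was not run because the columns used hold none. Depth limits Scn4a, Scn11a and Cacng1, at 0 to 9 counts per library.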
